A study of Drosophila melanogaster with 16 samples.

Results

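Silencing of Hnf4 in the enterocytes of Drosophila melanogaster larvae was examined on day 4 after egg laying, early in the third instar, by comparing 4 libraries of midgut RNA with the hairpin (Hnf4i) with 4 control libraries. These 8 libraries were chosen by their labels from the 16 of the series; the other 8 are the same 2 genotypes on day 3, late in the second instar. Hnf4i larvae carried mex-GAL4, a driver active in the enterocytes (the absorptive cells of the gut), and, at the attP40 site, a UAS construct that encodes a hairpin directed at Hnf4. Control larvae carried mex-GAL4 and the attP40 site without a hairpin. All larvae were fed yeast alone and kept at 25 °C in vials seeded with 40 embryos. Each day 4 library was made from 10 pooled midguts and each day 3 library from 30, and polyadenylated RNA was sequenced. The comparison rests on 1 hairpin, and the driver does not reach every cell of the midgut. The fathers came from different stocks. Both stocks carried a mutant v, and the hairpin insertion, but not the control site, is marked with a functional copy of v. The hairpin stock also carried mutations of sc and sev.

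HNF4 is a nuclear receptor that binds fatty acids and activates genes of lipid metabolism in flies and mammals. In the fly it is known for driving the genes that burn fatty acids in mitochondria and peroxisomes. The enterocytes of the midgut take up dietary fatty acids, store them as triglyceride in lipid droplets, oxidise them or export them in lipoproteins.

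The 8 libraries held 48611297 to 57771857 counts in Hnf4i and 50906793 to 83418453 in control midguts, and values below are CPM, counts relative to the library's total after scaling by TMM, which sets a level relative to the other transcripts of its library. On this scale 3 counts in a library correspond to 0.0416 to 0.0669 CPM. The table counts 17873 genes, and 9801 of them had enough counts to enter edgeR's quasi-likelihood test. Higher and lower below mean a Benjamini-Hochberg adjusted p under 0.05, over the 9801 genes, with a log2 fold change of 0.5 or more in either direction. With no fold minimum, 1345 of the 9801 genes had a positive and 1346 a negative change at that adjusted p. All of these also have an unadjusted p under 0.05, so the counts at an unadjusted p below are to be read beside them. They are only a lower bound for all genes at that p, and the full number is not given here. A number alone in parentheses after a gene is its log2 fold change of Hnf4i over control, and values after ± are SD over 4 libraries. On principal components of the 8 libraries the first axis, with 43.1% of the variance, separated the genotypes, and the second, with 14.9%, set Hnf4i replicate 3 apart from the other 7.

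Some libraries held transcripts of other tissues. Lsp1beta, which encodes a storage protein made by the larval fat body, had 387, 291, 0.130 and 1000.1 CPM in Hnf4i midguts, against 0.0443, 0.555, 29.0 and 0 CPM in control midguts. Hnf4i replicates 1, 2 and 4 and control replicate 3, each with at least 10 CPM of Lsp1beta, are called the libraries with fat body transcripts. The summed level of the 8 fat body markers that passed the count filter ranged from 14.02 to 2884 CPM in Hnf4i and from 24.5 to 141 CPM in control midguts. All 8 were called higher, while 5 were called in a fit of the 8 day 4 libraries alone and 2 with a replicate block. Without the libraries just named their median log2 fold change was -1.02. The marker Fbp1 did not pass the filter and went the other way. It had 20 counts in Hnf4i and 240 in control midguts, with 4.20 CPM in control replicate 3 and at most 0.344 CPM in an Hnf4i library. Uro, which encodes urate oxidase of the Malpighian tubule, had 40.0 CPM in Hnf4i replicate 2 and 0 counts in the other 7 libraries. It was picked after its values were seen. The 6 tubule markers that passed the count filter, Uro not among them, summed to 348 CPM in Hnf4i replicate 2 and 346 to 395 CPM in the other 7. The summed level of 15 visceral muscle markers was 4734 to 6687 CPM in Hnf4i and 7246 to 8248.7 CPM in control midguts, with no overlap. The 7 enterocyte markers were present in every library, with sums of 4516 to 4775 CPM in Hnf4i and 3603 to 3999.9 CPM in control midguts, with 0 of the 7 called by edgeR, 1 called higher by DESeq2 and 6 with a positive log2 fold change at an unadjusted p under 0.05. Salivary gland markers were near 0, and none of the 6 passed the count filter. What part the fat body, muscle and tubule transcripts have in the results on other genes was not tested, except where values without these libraries are given.

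**Figure D1:**
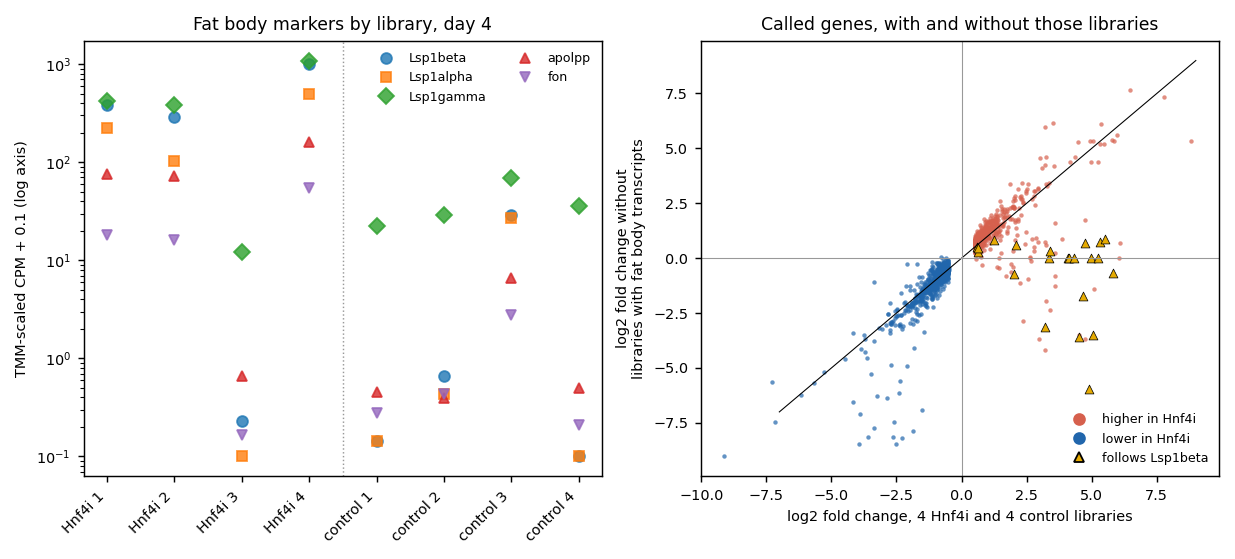
The left panel plots 5 fat body markers in each day 4 library (TMM-scaled CPM + 0.1, log axis). The right panel plots the log2 fold change of Hnf4i over control of each called gene, from all 8 day 4 libraries on the horizontal axis and without the libraries with fat body transcripts on the vertical axis (line: equal values). Hnf4i replicates 1, 2 and 4 held 291 to 1000.1 CPM of Lsp1beta, and genes that follow Lsp1beta and were called (triangles) lie between -5.94 and 0.89 on the vertical axis, whereas most other called genes lie near the line.

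Hnf4 itself was lower in every Hnf4i library. Hnf4 (FBgn0004914) had 67.4, 58.8, 63.8 and 68.3 CPM in Hnf4i midguts, against 126, 124, 134 and 126 CPM in control midguts. The groups did not overlap (two-sided exact permutation test, p = 0.0286, which is the lowest possible with 4 libraries a group), and 50.6% of the control level remained by the fit (log2 fold change of -0.98 with an SE of 0.05, adjusted p = 3.90e-10). A hairpin acts in the cells that express the driver, so these values of whole midguts do not give the level left in enterocytes, and a lower level of any transcript cannot be told apart from fewer cells that contain it.

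On day 4, 658 genes were lower and 535 higher in Hnf4i midguts, or 6.71 and 5.46% of the genes tested and 12.2% together. These shares are the background for the counts of called members in the lists below. The median log2 fold change of all genes was 0.02. Large decreases were found among well-expressed genes: of those averaging 10 CPM or more in either group, 156 were at least 2-fold lower and 26 at least 4-fold lower, while 74 were at least 2-fold higher and 22 at least 4-fold higher, 4 of which follow Lsp1beta. The libraries of the groups did not overlap for 558 of the lower genes and 409 of the higher genes; over all genes tested 24.2% did not overlap. Protein-coding genes made up 644 of the lower and 518 of the higher genes, with 11 and 14 non-coding RNAs.

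**Figure D2:**
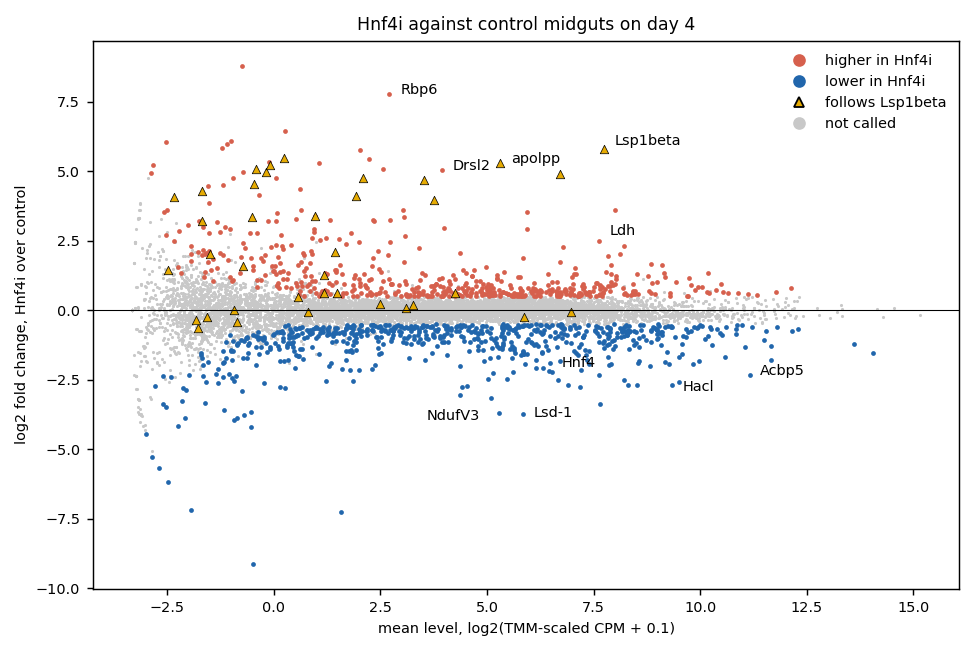
Each point is 1 of the 9801 genes tested, with its mean level over the groups (log2 of TMM-scaled CPM + 0.1) on the horizontal axis and the log2 fold change of Hnf4i over control on day 4 on the vertical axis. Blue points are the genes called lower, red points those called higher, grey points those not called, and triangles the 37 genes that follow Lsp1beta.

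Part of the fat body transcripts could be told apart by their course over the libraries. A gene was said to follow Lsp1beta when its deviations from the mean of its genotype, in log2 CPM over the 8 libraries, correlated with those of Lsp1beta with a Pearson r of at least 0.9, which is a description of 8 points. There were 37 such genes, and 22 of them were called higher. Each had its lowest Hnf4i value in replicate 3, which the rule favours, since Lsp1beta was lowest there. Another 15 genes had an r of -0.9 or below, so not each of the 37 need be a fat body transcript. CG5254, for example, varied little, from 113 to 131 CPM in Hnf4i midguts, and was not called. The lipoprotein gene apolpp was one of them, with 75.1, 72.9, 0.562 and 159 CPM in Hnf4i midguts, against 0.355, 0.292, 6.55 and 0.402 CPM in control midguts. Its log2 fold change was 5.31 in the 8 libraries and 0.74 without the libraries with fat body transcripts. The storage protein genes Lsp1alpha and Lsp1beta stood at 4.89 and 5.81 in the 8 libraries and at -5.94 and -0.67 in that fit, with no call there. Eip78C, an ecdysone-induced nuclear receptor gene, svp, the fly COUP-TF gene, and Npc2g, of the Niemann-Pick type C sterol transport family, also follow Lsp1beta; 513 of the 535 higher genes do not. These 513 still hold fat body transcripts, since 3 of the 8 fat body markers, Lsp1gamma, Lsp2 and Fbp2, were called higher without reaching that r; they stood at -1.25, -1.41 and -0.79 without the libraries with fat body transcripts. Without the libraries with fat body transcripts, which leaves Hnf4i replicate 3 against control replicates 1, 2 and 4 with the spread taken from all groups left, 656 of the 658 lower genes had a negative log2 fold change, at -0.5 or below for 548. Of 533 higher genes with a value, 496 had a positive one, at 0.5 or above for 463. Of the 22 higher genes that follow Lsp1beta, 6 were at 0.5 or above in that fit. The libraries left also entered the fit that made the calls, which favours equal signs. Hnf4i replicate 3 lay outside the range of these controls, on the side of the log2 fold change, for 623 lower and 482 higher genes. Over all 9801 genes it did so for 6133.

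Among the 15 lowest genes were a lipid droplet gene and 5 members of the fatty acid oxidation lists. The lowest of those that averaged 10 CPM or more in either group and whose groups did not overlap was Lsd-1 (chromosome 3R, positions 23763857 to 23766662 in BDGP6), the gene of a perilipin that coats lipid droplets. It had 3.12, 11.1, 7.65 and 10.7 CPM in Hnf4i midguts, against 78.0, 88.1, 129 and 132 CPM in control midguts (log2 fold change of -3.72 with an SE of 0.32, adjusted p = 1.69e-07), so that 7.61% of the control level remained. NdufV3 (chromosome X, positions 11349998 to 11350474 in BDGP6), a subunit gene of respiratory complex I, had 4.40, 10.4, 3.72 and 3.90 CPM in Hnf4i midguts, against 73.5, 77.8, 68.6 and 68.1 CPM in control midguts (log2 fold change of -3.69 with an SE of 0.23, adjusted p = 2.94e-09). Dhrs4 and Hsdl2, of the short-chain dehydrogenase family, were both lower. Dhrs4 had 31.1, 59.3, 26.4 and 26.5 CPM in Hnf4i midguts, against 372, 391, 349 and 353 CPM in control midguts, and Hsdl2 averaged 37.6 ± 8.32 CPM in Hnf4i and 253 ± 7.63 CPM in control midguts (SD, n = 4 each). All 4 genes were above 68 CPM in every control library and below 60 CPM in every Hnf4i library.

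Amacr, the gene of the racemase that readies branched fatty acids for oxidation, had 4.80, 5.21, 3.89 and 3.84 CPM in Hnf4i midguts, against 35.0, 39.2, 34.6 and 38.1 CPM in control midguts (log2 fold change of -3.05 with an SE of 0.10, adjusted p = 5.42e-12). Hacl, which encodes the lyase of peroxisomal alpha-oxidation, was among the most abundant of the lowest genes and had 168, 244, 137 and 144 CPM in Hnf4i midguts, against 1126, 1149, 1121 and 1087 CPM in control midguts (log2 fold change of -2.697 with an SE of 0.14, adjusted p = 1.59e-10). The mitochondrial thiolase gene yip2 had 61.2, 126, 71.3 and 80.5 CPM in Hnf4i midguts, against 527, 560.3, 559 and 560.4 CPM in control midguts. SLC22A, of a family of organic cation and carnitine transporters, averaged 5.52 ± 2.68 CPM in Hnf4i and 37.2 ± 2.69 CPM in control midguts, and Cyp12a4, a mitochondrial cytochrome P450, averaged 89.8 ± 29.0 CPM in Hnf4i and 506 ± 45.1 CPM in control midguts (SD, n = 4 each). The other members of the lowest 15 were CG10195 (-3.16), CG31741 (-2.74), the acyl-CoA oxidase gene Acox57D-d (-2.69), the acyl-CoA synthetase gene CG6178 (-2.67), CG17597 (-2.57) and CG9577, of the enoyl-CoA hydratase family (-2.51). In 13 of the 15, the highest Hnf4i value was that of replicate 2, the library with Uro. Without this library all 15 were more negative, at -2.57 or below, and all 15 kept the call under each alternative of the analysis. Exons of 10 of these 15 genes overlap another gene or, for Cyp12a4, an entry that is no gene. The strand setting of the counting is not given, so reads of such pairs may not have been separated.

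**Figure D3:**
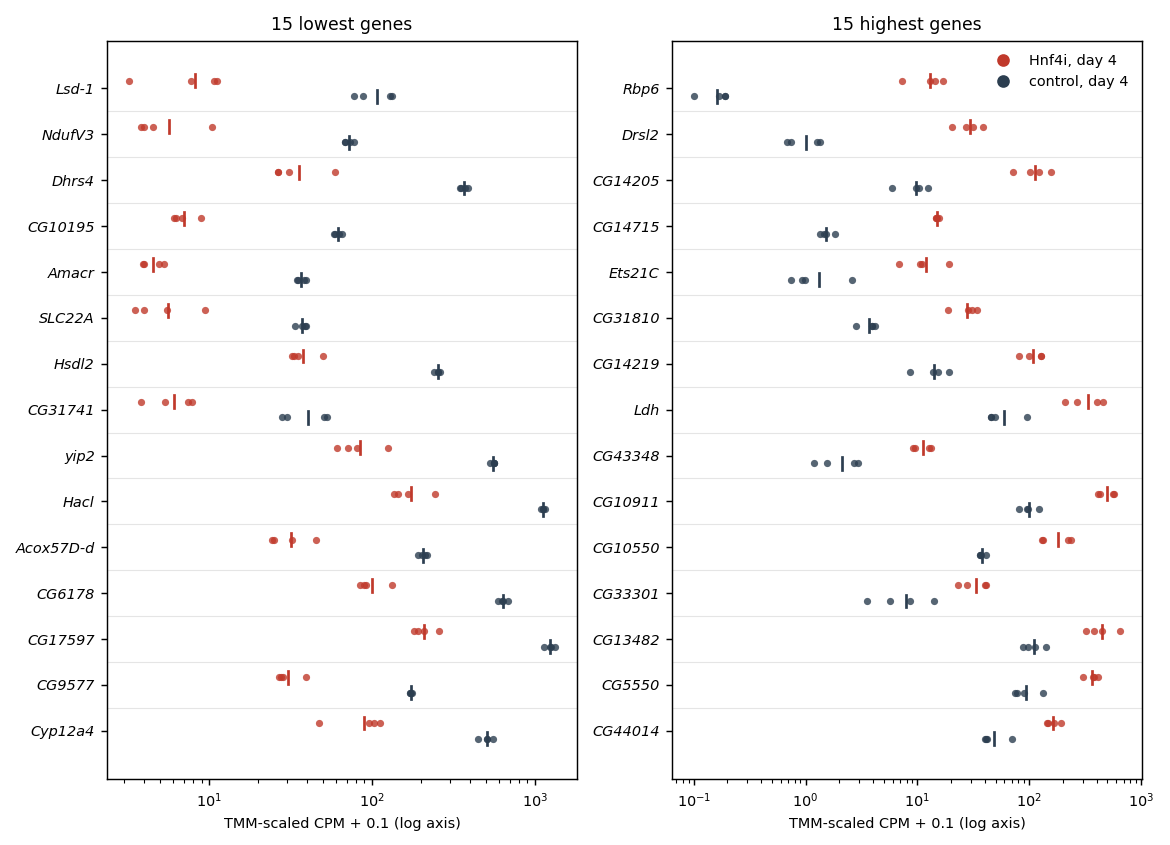
TMM-scaled CPM (+ 0.1, log axis) of the 15 lowest genes (left) and 15 highest genes (right) that averaged 10 CPM or more in either group; red points above are the 4 Hnf4i libraries, dark points below the 4 control libraries, and ticks mark the means. The groups do not overlap for any of the 30 genes, as the rule for choosing them requires, and Lsd-1 lies between 3.12 and 11.1 CPM in Hnf4i midguts against 78.0 to 132 CPM in control midguts.

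Transcripts of most fatty acid oxidation enzymes were lower. Of 21 genes of mitochondrial beta-oxidation and the carnitine shuttle 17 were lower and 1 higher, with a median log2 fold change of -1.53, and their summed level was 2722 ± 343 CPM in Hnf4i and 6122 ± 369 CPM in control midguts (SD, n = 4 each), or 44.5% of control. The inner-membrane carnitine acyltransferase CPT2 averaged 27.3 ± 4.55 CPM in Hnf4i and 114 ± 1.90 CPM in control midguts (log2 fold change of -2.06 with an SE of 0.08, adjusted p = 1.92e-11). The carnitine acetyltransferase gene CRAT (-1.98), the very-long-chain and medium-chain acyl-CoA dehydrogenase genes Acadvl (-2.15) and Mcad (-2.09), and the subunits of the trifunctional protein, Mtpalpha (-1.92) and Mtpbeta (-1.77), were lower too. So were the electron acceptors of beta-oxidation, with Etf-QO at -1.60, wal at -1.28 and Etfb at -1.21. The gene of the outer-membrane carnitine palmitoyltransferase, whd, was not called, with 96.1, 52.0, 79.2 and 59.0 CPM in Hnf4i midguts, against 65.3, 66.6, 92.9 and 81.4 CPM in control midguts (log2 fold change of -0.10 with an SE of 0.15, adjusted p = 0.697), and its groups overlapped. CG4860, an acyl-CoA dehydrogenase family gene picked after its value was seen, was the exception in direction, with 16.7 ± 0.820 CPM in Hnf4i and 9.94 ± 1.47 CPM in control midguts (0.75).

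In peroxisomal fatty acid oxidation 13 of 15 genes were lower and 1 higher (median -1.83), and the summed level was 3035 ± 363 CPM in Hnf4i and 8251 ± 259 CPM in control midguts, or 36.8% of control. Mfe2, the multifunctional enzyme, had 341, 470.0, 337 and 372 CPM in Hnf4i midguts, against 1526, 1492, 1409 and 1314 CPM in control midguts (log2 fold change of -1.92 with an SE of 0.09, adjusted p = 1.37e-10), and the thiolase and sterol carrier gene ScpX averaged 182 ± 32.3 CPM in Hnf4i and 722 ± 22.7 CPM in control midguts (-1.98). Abcd3, a transporter gene of the peroxisomal membrane, was lower by less (-0.56). CG17544, of the acyl-CoA oxidase family, was higher (0.86). The peroxin genes, whose products build peroxisomes, were lower as well, in 12 of 13 cases (median -1.29). Pex14, which docks the import receptor at the membrane, had 26.9, 37.0, 28.5 and 30.2 CPM in Hnf4i midguts, against 139, 133, 123 and 122 CPM in control midguts (log2 fold change of -2.08 with an SE of 0.08, adjusted p = 1.28e-11). The import receptor gene Pex5 averaged 31.0 ± 2.698 CPM in Hnf4i and 91.6 ± 4.21 CPM in control midguts (-1.56), and Pex13, its other docking partner, 81.4 ± 3.14 CPM in Hnf4i and 205 ± 7.32 CPM in control midguts (-1.33). Pex3, which places membrane proteins, stood at -0.34 with no call. Over these 3 lists 42 of 49 genes were lower, 2 higher and 5 not called, against 6.71% lower among all genes tested; the lists were put together with earlier results of these data known. Without the libraries with fat body transcripts their medians were -1.78, -1.96 and -1.39.

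**Figure D4:**
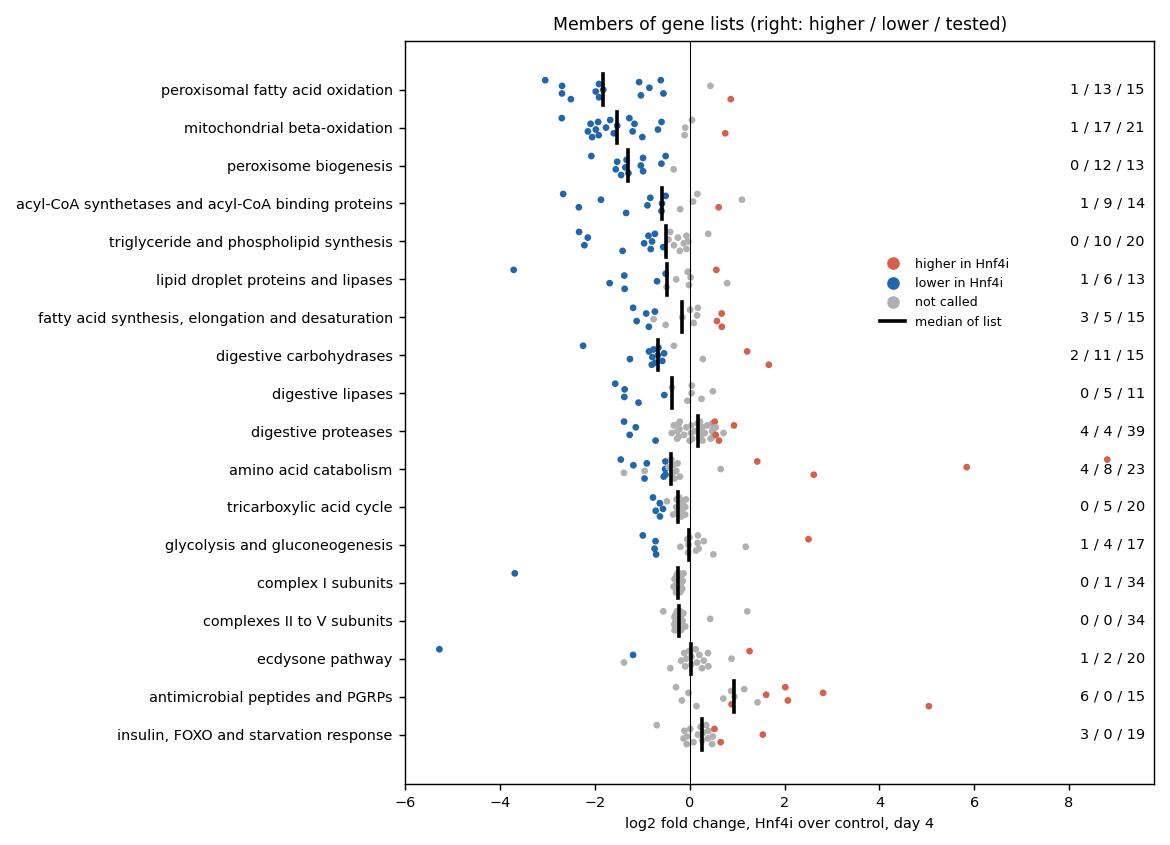
Log2 fold changes of Hnf4i over control on day 4 for the members of 18 gene lists; each point is a gene tested, blue if called lower, red if called higher and grey if not called, black bars are the medians, and the figures at the right count members higher, lower and tested. Most members of the oxidation and peroxisome lists lie left of 0, with 13 of 15, 17 of 21 and 12 of 13 members lower, while respiratory chain subunits have a median of -0.24 in complex I with NdufV3 at -3.69; the points of v (amino acid catabolism) and ImpE2 (ecdysone) are fitted values against groups at 0 counts.

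Lipid storage genes were lower in part. Of 20 genes of triglyceride and phospholipid synthesis 10 were lower (median -0.51), among them genes that add acyl chains to glycerol 3-phosphate. The first acyltransferase gene, mino, had 62.5, 75.5, 56.5 and 66.6 CPM in Hnf4i midguts, against 318, 345, 297 and 359 CPM in control midguts (log2 fold change of -2.34 with an SE of 0.11, adjusted p = 5.14e-11). The next, Agpat2, averaged 32.3 ± 5.79 CPM in Hnf4i and 151 ± 17.2 CPM in control midguts (-2.22), and Seipin, which shapes the sites of droplet formation, averaged 85.8 ± 12.9 CPM in Hnf4i and 229 ± 19.8 CPM in control midguts (-1.42). Lpin (-0.56), a phosphatidate phosphatase gene, and Dgat2 (-0.82), which makes triglyceride from diacylglycerol, were lower, while the other diacylglycerol acyltransferase gene mdy stood at -0.45, under the fold minimum. The genes of the phosphatidylcholine and phosphatidylethanolamine branches, Pcyt1 (-0.04), Pcyt2 (-0.07) and bbc (-0.13), were not called. Of 13 lipid droplet proteins and lipases 6 were lower and 1 higher. Ldsdh1, a droplet-bound dehydrogenase, averaged 345 ± 22.6 CPM in Hnf4i and 1113 ± 91.0 CPM in control midguts (-1.69), the second perilipin gene Lsd-2 averaged 301 ± 13.4 CPM in Hnf4i and 486 ± 20.1 CPM in control midguts (-0.69), and the triglyceride lipase gene bmm stood at -0.51. The higher member, Jabba, stood at 0.56 and at -0.02 without the libraries with fat body transcripts, and lost its call without Hnf4i replicate 2 or 4 or control replicate 1 or 3.

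The genes that hand fatty acids to these pathways were mostly lower, while fatty acid synthase was not called. Of 14 acyl-CoA synthetases and acyl-CoA binding proteins 9 were lower and 1 higher. Acbp5, an acyl-CoA binding protein gene, had 776, 1027, 616 and 597 CPM in Hnf4i midguts, against 3606, 4131, 3790.5 and 3756 CPM in control midguts (log2 fold change of -2.34 with an SE of 0.14, adjusted p = 1.31e-09). The transport protein genes Fatp1 and Fatp3 stood at -1.87 and -1.34, and the long-chain synthetase gene Acsl at -0.60. Of 15 genes of fatty acid synthesis, elongation and desaturation 5 were lower and 3 higher. FASN1, a fatty acid synthase gene, was not called, with 2696, 2659, 2138 and 2635 CPM in Hnf4i midguts, against 2538, 2393, 2251 and 2388 CPM in control midguts (log2 fold change of 0.08 with an SE of 0.12, adjusted p = 0.679), nor was ACC, the carboxylase before it (0.17). The cytosolic supply enzymes AcCoAS (0.67) and ATPCL (0.67) were higher, and the malic enzyme gene Men, which yields NADPH, was lower, with 461 ± 42.7 CPM in Hnf4i and 1056 ± 50.2 CPM in control midguts (log2 fold change of -1.20 with an SE of 0.08, adjusted p = 5.74e-09). The desaturase gene Desat1 averaged 799.5 ± 112 CPM in Hnf4i and 1514 ± 88.3 CPM in control midguts (-0.92).

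Most digestive carbohydrases were lower, while as many digestive proteases were higher as lower. Of 15 digestive carbohydrases 11 were lower and 2 higher (median -0.67), and their summed level was 15108 ± 1355 CPM in Hnf4i and 23704 ± 828 CPM in control midguts. The beta-galactosidase gene Gal had 12.6, 21.8, 6.48 and 7.96 CPM in Hnf4i midguts, against 58.4, 58.6, 61.6 and 53.4 CPM in control midguts (log2 fold change of -2.25 with an SE of 0.26, adjusted p = 6.05e-06). The amylase genes Amy-d and Amy-p stood at -1.26 and -0.58, and the maltase gene Mal-A4 averaged 1033 ± 56.9 CPM in Hnf4i and 1802 ± 218 CPM in control midguts (-0.80). The higher members were lysozymes, with LysE at 606, 558, 772 and 879 CPM in Hnf4i midguts, against 205, 248, 233 and 199 CPM in control midguts (log2 fold change of 1.67 with an SE of 0.16, adjusted p = 5.90e-07); the call of the other, LysX (1.21), was lost without Hnf4i replicate 1 or 3 or control replicate 1 or 2. Of 11 digestive lipases 5 were lower. CG6277 averaged 383 ± 88.6 CPM in Hnf4i and 1141 ± 104 CPM in control midguts (log2 fold change of -1.57 with an SE of 0.28, adjusted p = 4.07e-04), and CG6295 averaged 1841 ± 495 CPM in Hnf4i and 3899.6 ± 324 CPM in control midguts (-1.08). The lipase gene mag was not called, with 2941, 3165, 3939 and 5415 CPM in Hnf4i midguts, against 2993, 3045, 3569 and 3418 CPM in control midguts (log2 fold change of 0.25 with an SE of 0.14, adjusted p = 0.213). Another, CG6271, was not called either, with 1834, 1527, 1270.3 and 1977 CPM in Hnf4i midguts, against 1494, 1445, 1613 and 1865 CPM in control midguts (log2 fold change of 0.04 with an SE of 0.27, adjusted p = 0.932), and the groups overlapped for both. Of 39 digestive proteases 4 were lower and 4 higher (median 0.16), or 20.5% called, against 12.2% of all genes tested. Their summed level was 100159 ± 9027 CPM in Hnf4i and 102758 ± 6592 CPM in control midguts. Jon99Fii was lower and averaged 1911 ± 278 CPM in Hnf4i and 4605 ± 180.0 CPM in control midguts (-1.27), while the trypsin gene alphaTry was higher and averaged 335 ± 70.6 CPM in Hnf4i and 175 ± 29.0 CPM in control midguts (0.93). The number of higher proteases was 7 without Hnf4i replicate 2 or control replicate 3 and 2 without Hnf4i replicate 4. Amylases, lysozymes, Jonah proteases and trypsins have close copies, so reads may have been split among them.

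In central carbon metabolism and amino acid catabolism most calls were decreases, and Ldh was the largest increase in glycolysis. Ldh, which converts pyruvate to lactate, was higher and had 209, 268, 407 and 461 CPM in Hnf4i midguts, against 49.7, 45.7, 96.4 and 45.5 CPM in control midguts (log2 fold change of 2.50 with an SE of 0.25, adjusted p = 8.95e-07), with control replicate 3 above the other controls. Of 17 genes of glycolysis and gluconeogenesis it was the 1 that was higher, and 2 were higher without Hnf4i replicate 1 or 2 or control replicate 1 or 3. The lower genes of the list were Gpdh1 (-0.99), which links glycolysis to glycerol 3-phosphate, Pepck2 (-0.74), Ald1 (-0.72) and Tpi (-0.71). The summed level of the list was 4747 ± 212 CPM in Hnf4i and 4770.4 ± 178 CPM in control midguts, and the groups overlapped. Of 20 genes of the tricarboxylic acid cycle and pyruvate carboxylation 5 were lower, with the pyruvate carboxylase gene PCB at -0.78 and the malate dehydrogenase genes Mdh1 and Mdh2 at -0.72 and -0.57. All 20 had a negative log2 fold change (median -0.25), 17 of them at an unadjusted p under 0.05, and their summed level was 7851 ± 584 CPM in Hnf4i and 10253 ± 806 CPM in control midguts (SD, n = 4 each), or 76.6% of control, with no overlap. In amino acid catabolism 8 of 23 genes were lower, and 16 had a negative value at an unadjusted p under 0.05. Their summed level was 4757 ± 176 CPM in Hnf4i and 7263 ± 329 CPM in control midguts, or 65.5% of control, with no overlap. Oat, ornithine aminotransferase, averaged 89.5 ± 3.60 CPM in Hnf4i and 245 ± 37.1 CPM in control midguts (log2 fold change of -1.46 with an SE of 0.13, adjusted p = 1.52e-07), and Shmt, serine hydroxymethyltransferase, averaged 76.3 ± 3.59 CPM in Hnf4i and 174 ± 9.90 CPM in control midguts (-1.19). The 4 higher genes of that list, v, Hn, Gnmt and Sardh, were all highest in Hnf4i replicate 4, the library with the most Lsp1beta, and lowest among the Hnf4i libraries in replicate 3. Hn, phenylalanine hydroxylase, had 0.344, 0.757, 0.0864 and 1.41 CPM in Hnf4i midguts, against 0, 0, 0.0356 and 0 CPM in control midguts, and v, tryptophan oxygenase, had 0.960, 0.930, 0.0864 and 2.01 CPM in Hnf4i midguts, against 0, 0, 0 and 0 CPM in control midguts; v, also the marker gene of the hairpin insertion, was at least 74.5-fold higher when its controls are set at 3 counts over the group. The list had 2 higher genes without Hnf4i replicate 4 and 0 by edgeR without the libraries with fat body transcripts.

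Subunit genes of the respiratory chain and the ribosome had mostly small negative log2 fold changes, and NdufV3 and mRpL13 were the ones called. Of 34 genes of complex I, NdufV3 was called and no other (median -0.24), while 31 had an unadjusted p under 0.05, all with a negative log2 fold change. All 34 had a negative value, against 4637 of the 9801 genes tested. Of 34 genes of complexes II to V edgeR and DESeq2 called 0, with 30 at an unadjusted p under 0.05, all negative (median -0.23, range -0.56 to 1.21). The 84 cytosolic ribosomal protein genes had a median of -0.15, 0 calls by either tool and 75 negative values at an unadjusted p under 0.05. The 13 mitochondrially encoded transcripts had a median of -0.21, 0 calls by either tool and 2 negative values at an unadjusted p under 0.05. Of 72 mitochondrial ribosomal protein genes 1 was lower (mRpL13, -0.55), between 0 and 6 without single libraries, and 24 without the libraries with fat body transcripts, where the median was -0.42. The 24 genes of the vacuolar proton pump had a median of -0.26, 0 calls by either tool and 16 negative values at an unadjusted p under 0.05. The 12 septate junction genes, of the barrier between gut cells, had a median of 0.27, 0 calls by either tool and 8 members at an unadjusted p under 0.05, 7 of them positive; 4 were higher without the libraries with fat body transcripts.

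The highest genes were more diverse. Rbp6 (chromosome 3L, positions 17058774 to 17238212 in BDGP6), which encodes an RNA-binding protein of the Musashi type, had 14.3, 12.8, 7.24 and 16.9 CPM in Hnf4i midguts, against 0.0887, 0, 0.0890 and 0.0669 CPM in control midguts (log2 fold change of 7.80 with an SE of 0.88, adjusted p = 4.18e-06). It was below 0.1 CPM in every control library and above 7 CPM in every Hnf4i library. Ets21C, an ETS transcription factor that acts downstream of stress signalling in the adult fly gut, had 6.78, 10.4, 18.9 and 10.9 CPM in Hnf4i midguts, against 0.643, 0.833, 2.51 and 0.893 CPM in control midguts (log2 fold change of 3.25 with an SE of 0.37, adjusted p = 5.24e-06). CG14715 varied little among the Hnf4i libraries, with 15.02, 14.5, 15.6 and 14.5 CPM in Hnf4i midguts, against 1.42, 1.74, 1.35 and 1.25 CPM in control midguts (log2 fold change of 3.36 with an SE of 0.14, adjusted p = 1.99e-11). CG14205 averaged 113 ± 35.3 CPM in Hnf4i and 9.56 ± 2.76 CPM in control midguts and CG14219 averaged 109 ± 23.0 CPM in Hnf4i and 14.1 ± 4.36 CPM in control midguts (SD, n = 4 each; 3.55 and 2.94). CG10911, with 493 ± 83.9 CPM in Hnf4i and 99.3 ± 17.8 CPM in control midguts (2.31), CG13482, with 450.5 ± 145 CPM in Hnf4i and 110.0 ± 23.1 CPM in control midguts (2.03), and CG5550, with 367 ± 47.7 CPM in Hnf4i and 93.9 ± 26.6 CPM in control midguts (1.97), were the most abundant beside Ldh. The others were Drsl2, CG31810 (2.95), CG43348 (2.47), CG10550 (2.28), CG33301 (2.07) and CG44014 (1.75). In 10 of the 15 the highest control value was that of replicate 3. Without the libraries with fat body transcripts all 15 had log2 fold changes of 2.24 to 7.33, and the call of each held under every alternative. Exons of 4 of the 15 overlap another gene.

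Several immune genes were higher. Of 15 antimicrobial peptides and peptidoglycan recognition genes 6 were higher (median 0.94). Drsl2, which encodes a peptide of the Drosomycin family, had 38.7, 27.2, 31.4 and 20.5 CPM in Hnf4i midguts, against 0.643, 0.583, 1.16 and 1.25 CPM in control midguts (log2 fold change of 5.04 with an SE of 0.25, adjusted p = 1.59e-10), and its relatives Drsl3 and Drsl5 stood at 2.81 and 2.07. The membrane receptor gene PGRP-LF, known for damping the IMD pathway, averaged 2.82 ± 0.570 CPM in Hnf4i and 0.690 ± 0.205 CPM in control midguts (log2 fold change of 2.01 with an SE of 0.30, adjusted p = 7.06e-05), and pirk, another inhibitor of that pathway, had 230.0, 238, 353 and 227 CPM in Hnf4i midguts, against 147, 133, 148 and 141 CPM in control midguts (0.88). PGRP-SC2 and PGRP-LB, which encode enzymes that degrade peptidoglycan, were not called (-0.29 and -0.03), nor was the peptide gene DptA, with at most 0.267 CPM in any Hnf4i or control library. In the list of insulin, FOXO and starvation response genes 3 of 19 were higher and 0 lower, or 15.8% called, against 12.2% of all genes tested. Thor, the translation inhibitor 4E-BP, had 140.2, 186, 271 and 206 CPM in Hnf4i midguts, against 37.3, 53.3, 102 and 83.1 CPM in control midguts (log2 fold change of 1.54 with an SE of 0.29, adjusted p = 6.89e-04), the autophagy kinase gene Atg1 averaged 41.5 ± 7.41 CPM in Hnf4i and 26.4 ± 2.38 CPM in control midguts (0.65), and Lnk stood at 0.52, a call lost without Hnf4i replicate 3 or 4 or control replicate 1 or 2. Without Hnf4i replicate 2 this list had 6 higher genes, and without the libraries with fat body transcripts 9. The insulin receptor gene InR (0.35) and foxo (-0.11) were not called.

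Some stress and metal genes were called. Of 20 heat shock and unfolded protein response genes 2 were higher and 0 lower, or 10% called, against 12.2% of all genes tested. Hsp70Bb had 7.86, 7.09, 6.98 and 9.53 CPM in Hnf4i midguts, against 0.0665, 0.361, 0.0534 and 0 CPM in control midguts (log2 fold change of 5.78 with an SE of 0.77, adjusted p = 2.63e-05), whereas Hsp70Bc, a near-identical copy, had at most 0.0725 CPM in an Hnf4i and 0.250 CPM in a control library and was not called. The call of the other, Hsp67Bc (1.98), was lost without Hnf4i replicate 1 or 3 or any 1 control replicate. The chaperones of the endoplasmic reticulum, Hsc70-3 and Gp93, stood at 0.02 and 0.10. Of 18 metal genes 3 were higher and 1 lower, or 22.2% called, against 12.2% of all genes tested. The metallothionein genes MtnB (73.5 ± 5.98 CPM in Hnf4i and 32.2 ± 6.15 CPM in control midguts, 1.19) and MtnC (0.97) and the copper importer gene Ctr1B (0.71) were higher. MtnA (-0.11) and the ferritin genes Fer1HCH (0.06) and Fer2LCH (0.12) were not called. The iron carrier Tsf1 (-0.88) was lower, but control replicate 2, with 9.33 CPM, lay below all 4 Hnf4i libraries, and the call was lost without control replicate 1 or 4.

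Lipid uptake and transport genes went both ways. Of 20 genes of lipoproteins, sterol transport and the CD36 family 5 were lower and 5 higher, 3 of the higher ones being apolpp, Apoltp and Npc2g, which follow Lsp1beta. Without the libraries with fat body transcripts 3 were lower and 3 higher. The scavenger receptor gene ninaD, which takes up carotenoids, had 641, 1011, 596 and 701 CPM in Hnf4i midguts, against 2380.1, 2505, 2110.5 and 2370.3 CPM in control midguts (log2 fold change of -1.67 with an SE of 0.12, adjusted p = 2.19e-08). Croquemort, crq, of the same CD36 family, averaged 242 ± 14.9 CPM in Hnf4i and 409 ± 10.6 CPM in control midguts (-0.76). Npc2f, of the sterol-binding Npc2 family, was higher (0.65). Mtp (-0.18), which loads lipid onto lipoproteins, and Npc1b (-0.03), which takes up dietary sterol, were not called. Among transporters of amino acids, peptides and sugars, 3 of 19 were lower and 2 higher, or 26.3% called, against 12.2% of all genes tested. The transporter gene acs had 10.3, 16.99, 13.8 and 12.7 CPM in Hnf4i midguts, against 65.4, 67.3, 90.5 and 76.4 CPM in control midguts (log2 fold change of -2.48 with an SE of 0.14, adjusted p = 6.80e-10), the amino acid transporter gene path averaged 40.8 ± 3.99 CPM in Hnf4i and 82.8 ± 12.7 CPM in control midguts (-1.02), and NAAT1, which carries neutral amino acids, averaged 61.1 ± 12.8 CPM in Hnf4i and 23.3 ± 4.14 CPM in control midguts (1.39).

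Families of detoxification enzymes were split. Of 68 cytochrome P450 genes 12 were higher and 10 lower, or 32.4% called, against 12.2% of all genes tested. Without Hnf4i replicate 3, 7 were higher. Cyp28a5 was higher and averaged 1676 ± 503 CPM in Hnf4i and 656 ± 147 CPM in control midguts (log2 fold change of 1.35 with an SE of 0.18, adjusted p = 2.07e-05), and Cyp316a1 was lower and averaged 8.23 ± 2.02 CPM in Hnf4i and 32.9 ± 1.496 CPM in control midguts (-1.998). Of 30 UDP-glycosyltransferases 3 were higher and 4 lower, or 23.3% called. The number lower was 2 without Hnf4i replicate 1 or 2 or control replicate 3 or 4. Among the higher ones Ugt37A2 averaged 1176 ± 259.5 CPM in Hnf4i and 531 ± 88.3 CPM in control midguts (1.15). Of 32 glutathione S-transferases 1 was higher and 6 lower, or 21.9% called. Among the lower genes were 4 of the theta class, GstT1 (-1.56), GstT2 (-1.14), GstT3 (-1.19) and GstT4 (-0.67). GstO3, of the omega class, was the higher one and averaged 263 ± 32.7 CPM in Hnf4i and 149 ± 13.7 CPM in control midguts (0.83); 5 were higher without the libraries with fat body transcripts. Of 33 cuticle genes 6 were lower by the 16-library fit and none higher, or 18.2% called. The number lower was 0 by edgeR without Hnf4i replicate 3, 3 without control replicate 1 and 2 without control replicate 3.

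Ecdysone signalling genes were called at a share near that of all genes tested. Of 20 members 1 was higher (Eip78C, which follows Lsp1beta) and 2 lower, or 15% called, against 12.2% of all genes tested. Eip78C had 3.88, 2.85, 2.03 and 3.49 CPM in Hnf4i midguts, against 1.22, 1.28, 1.58 and 1.03 CPM in control midguts. Its log2 fold change was 1.26, and 0.81 without the libraries with fat body transcripts. The receptor gene EcR had 38.7, 28.6, 46.1 and 41.6 CPM in Hnf4i midguts, against 32.1, 31.5, 49.3 and 52.9 CPM in control midguts (log2 fold change of -0.10 with an SE of 0.17, adjusted p = 0.722), and the ecdysone-induced transcription factor gene br had 95.9, 65.1, 90.7 and 83.0 CPM in Hnf4i midguts, against 91.7, 92.6, 122 and 139 CPM in control midguts (log2 fold change of -0.41 with an SE of 0.17, adjusted p = 0.0864). The hydroxylase gene shd, which makes the active hormone, stood at -0.07 (adjusted p = 0.813), and Eo, an ecdysone oxidase gene, at 0.29 (adjusted p = 0.326). The groups overlapped for all 4. Without the libraries with fat body transcripts Eo stood at 0.90, EcR at 0.28 and shd at 0.10. MsrA, a methionine sulfoxide reductase gene that ecdysone induces, was lower, with 59.8, 52.3, 34.4 and 26.3 CPM in Hnf4i midguts, against 103, 103, 106 and 84.0 CPM in control midguts (log2 fold change of -1.20 with an SE of 0.22, adjusted p = 5.48e-04). ImpE2 had 0 counts in Hnf4i midguts and 19 counts in control midguts, at least 5.81-fold lower when set against 3 counts over the group; the call was lost without Hnf4i replicate 4 or control replicate 2. Beside Hnf4, Hr96, a nuclear receptor gene of dietary sterol and fat handling, stood at 0.50, close to the fold minimum, and its call was lost without Hnf4i replicate 3 or 4 or control replicate 2 or 4.

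Beside the fat body markers, of which all 8 that passed the count filter were higher, at most 3 markers of any other cell type were called. Of 7 progenitor, 6 Malpighian tubule and 6 neuronal markers 0 were called by edgeR or DESeq2, with 2, 3 and 1 at an unadjusted p under 0.05. Of 10 enteroendocrine markers the peptide genes NPF (0.67) and Mip (0.52) were higher; the call of Mip was lost without Hnf4i replicate 3 or 4 or control replicate 3. Of 7 hemocyte markers NimC1 (1.98) was higher and Pxn (-0.76) lower, the call of Pxn being lost without Hnf4i replicate 3 or 4 or control replicate 3 or 4, and of 7 copper and iron cell markers MtnB was higher. Of 15 visceral muscle markers bt (-0.74), sls (-0.63) and Mhc (-0.58) were lower, and all 15 had a negative log2 fold change (median -0.40). The myosin heavy chain gene Mhc had 625, 1151, 1134 and 927 CPM in Hnf4i midguts, against 1543, 1234, 1435 and 1529.8 CPM in control midguts, and none of the 3 was called without the libraries with fat body transcripts; Mhc and sls were not called without Hnf4i replicate 1, and bt was not called without Hnf4i replicate 1 or 4 or control replicate 1 or 4. Without Hnf4i replicate 2, 5 muscle markers were lower.

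The day 3 libraries show which of these effects were present before the molt. On day 3, 241 genes were lower and 148 higher in Hnf4i midguts (2.46 and 1.51% of the genes tested). Of the day 4 lower genes 185 were lower on day 3 too, which is 28.1% of the day 4 list and 76.8% of the day 3 list. Of the higher genes 81 were shared, 15.1% of the day 4 list and 54.7% of the day 3 list. The difference between the days was tested as an interaction, with 493 genes called (5.03%), 254 more positive on day 4 (2.59%) and 239 more negative (2.44%). Among the day 4 lower genes 183 were more negative on day 4 than on day 3 and 5 less so, and among the higher genes 183 were more positive and 4 less so. These lists were picked by day 4 values, which also enter the interaction, so the choice itself favours such splits. Of the lowest 15, 14 were lower on day 3 as well and 5 were more negative on day 4. NdufV3 stood at -3.69 on day 4 and -3.88 on day 3 (interaction 0.19, not called), and yip2 was less affected on day 4 (-2.702) than on day 3 (-3.59, interaction 0.89). CG31741 was called lower on day 4 and not on day 3 (-2.74, 0.09 on day 3 and an interaction of -2.83). In control midguts it averaged 40.3 CPM on day 4, with a log2 fold change of day 4 over day 3 of 5.31. The log2 fold change of CG31741 on day 3 had an SE of 0.33, and why the days differed was not tested.

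Of the 15 highest genes, which were picked by their day 4 values, 7 were higher on day 3 too and 12 were more positive on day 4. Ets21C stood at 3.25 on day 4 and -0.11 on day 3 (interaction 3.36), CG14205 at 3.55 and 0.16 (interaction 3.39), and Ldh at 2.50 and 0.55 (interaction 1.95). Drsl2 was less raised on day 4 (5.04) than on day 3 (6.48, interaction -1.44). Thor stood at 1.54 and -0.41 (interaction 1.95). The storage genes mino and Agpat2 fell further on day 4 (-2.34 and -2.22) than on day 3 (-0.64 and -1.03, interactions -1.70 and -1.20). In the list of digestive carbohydrases 8 of 15 members were more negative on day 4, with the interaction of Amy-d at -1.24. In peroxisomal oxidation 7 of 15 were more negative, while CROT, carnitine octanoyltransferase, and CG17544 were more positive (interactions 0.78 and 1.01). In mitochondrial oxidation yip2 was the 1 gene of 21 whose effect differed between the days.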

How the data were processed

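Midgut RNA of 16 libraries was compared, 4 for each genotype and day, each named in the labels as a separate sample. Per the labels and the study's methods, the authors trimmed reads (Trimmomatic 0.39), aligned them to BDGP6 (STAR 2.7.10b) and deposited whole-number counts per gene; the counter's strand setting is not given in the sources used here. Their columns of fold changes and p-values were not used. The 6381 entries that are no genes (0.0404 to 0.0489% of day 4 counts) were left out. Genes were filtered with filterByExpr (minimum count 10, total 15), scaled by TMM and fitted with edgeR 4.0.16 (R 4.3.3, limma 3.58.1) over all 4 groups, quasi-likelihood test, p-values adjusted by Benjamini-Hochberg; scripts were tested on simulated data. CPM values were computed from the deposited counts and TMM. DESeq2 1.42.0, other scalings, filters, a replicate block, subsets of libraries and Lsp1beta as a covariate were alternatives.

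Named were Hnf4, the 15 lowest and 15 highest called genes averaging 10 CPM or more in a group whose groups did not overlap and which do not follow Lsp1beta, up to 6 called members of each list with the largest change, all fat body markers, and 7 genes the study discusses (mag, CG6271, CG6277, EcR, br, Eo and shd); other list members were named after their values were seen. The members and lists were chosen with earlier results of these data known; the lists of digestive enzymes come from the study, the others from textbook knowledge. P-values measure the spread between these samples, and limits from counts cover counting error only.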

Additional observations from a re-analysis of the deposited data

Results flagged for a closer look

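In 30 of the 344 groups of 4 libraries examined (the 172 named genes in both genotypes), 1 library stood apart from the other 3 by Dixon's test at the 95% level, and chance alone flags about 1 group in 20. Hnf4i replicate 1 stood apart for Agpat1 (0.707), in CPM. Hnf4i replicate 2 stood apart for NdufV3 (10.4), Dhrs4 (59.3), Hsdl2 (49.9), CG6178 (133) and CG9577 (39.2), in CPM. Hnf4i replicate 3 stood apart for pirk (353), in CPM. Hnf4i replicate 4 stood apart for TwdlG (1.20), in CPM. Control replicate 1 stood apart for yip2 (527) and Cds (188), in CPM. Control replicate 2 stood apart for Tsf1 (9.33), bt (343), sls (205), CG6295 (3419), Cyp316a1 (35.1) and Cpr65Ay (1.19), in CPM. Control replicate 3 stood apart for Ets21C (2.51), Ldh (96.4), CG44014 (70.4), apolpp (6.55), Npc2g (0.409), Hn (0.0356), svp (0.0712), Lsp1alpha (26.7), Lsp1beta (29.0), Fbp2 (4.32) and fon (2.704), in CPM. Control replicate 4 stood apart for CG10550 (40.6), MsrA (84.0) and NPF (2.86), in CPM. The library with Uro, Hnf4i replicate 2, was the one with the highest values of NdufV3, Dhrs4, Hsdl2, CG6178 and CG9577 among the Hnf4i libraries, and 11 of the 30 fell on control replicate 3, the control library with fat body transcripts.

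The effect of silencing differed between day 4 and day 3 for 70 of the 172 named genes, by the interaction test of edgeR with adjusted p under 0.05 and a size of at least 0.5. Over all genes tested the share was 5.03%. Most named genes were chosen by the size of their day 4 change, which enters this difference. The values are log2 fold changes on day 4 minus those on day 3. Among genes lower on day 4 the effect was more negative than on day 3 for ImpE2 (-6.36), CG31741 (-2.83), acs (-1.72), Gal (-1.70), mino (-1.70), Cyp316a1 (-1.59), Men (-1.41), Oat (-1.39), CG10195 (-1.39), Amy-d (-1.24), ninaD (-1.24), Agpat2 (-1.20), MsrA (-1.06), Acbp5 (-1.04), Cyp311a1 (-0.998), Shmt (-0.88), GstD3 (-0.86), Jon74E (-0.86), Hacl (-0.84), Seipin (-0.80), Ugt37B1 (-0.78), Fatp3 (-0.76), CG17597 (-0.75), Ldsdh1 (-0.74), CG6295 (-0.73), Acox57D-d (-0.71), CG17191 (-0.71), Mfe2 (-0.67), Cht4 (-0.67), Gpdh1 (-0.64), ScpX (-0.63), iotaTry (-0.63), path (-0.59), Pex11ab (-0.58), Desat1 (-0.56), Pex6 (-0.55), Pex5 (-0.55), Pepck2 (-0.52), Pex10 (-0.52) and mRpL13 (-0.50). Among genes higher on day 4 the effect was more negative than on day 3 for Drsl2 (-1.44) and MtnB (-1.07). Among genes lower on day 4 the effect was more positive than on day 3 for yip2 (0.89). Among genes higher on day 4 the effect was more positive than on day 3 for Lsp1gamma (4.28), CG14205 (3.39), Ets21C (3.36), PGRP-LF (2.55), CG5550 (2.44), CG14219 (2.24), CG10911 (2.22), Drsl3 (2.21), CG31810 (2.10), CG33301 (2.00), Ldh (1.95), Thor (1.95), CG13482 (1.83), NAAT1 (1.65), CG44014 (1.61), CG10550 (1.58), CG43348 (1.44), Ugt35C1 (1.40), Eip78C (1.23), Ugt37A2 (0.96), alphaTry (0.92), Cyp28a5 (0.92), Ugt37C2 (0.68), thetaTry (0.67), NPF (0.63), ValRS (0.61) and Atg1 (0.57).

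Entries of the count table that are no genes took a mean of 0.0478% of the counts in Hnf4i midguts on day 4, against 0.0404 to 0.0442% in the control libraries; they entered no comparison.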

How the results depend on the processing

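Hnf4 stayed called in every setting (log2 fold change -1.01 to -0.94 without single libraries, -0.95 without the libraries with fat body transcripts). The number of genes higher and lower was 556 and 649 with RLE scaling, 531 and 669 with upper quartile scaling, 596 and 708 with DESeq2, 531 and 665 without the count filter, 477 and 556 from the 8 day 4 libraries alone and 443 and 560 with Lsp1beta as a covariate. Leaving out single libraries gave 459 to 570 higher and 585 to 703 lower genes, and 411 to 587 genes whose effect differed between the days. Without the libraries with fat body transcripts 700 were higher and 617 lower, of which 364 and 410 were among the main calls; the cause was not tested. The labels number replicates alike in both genotypes, but same-numbered samples did not all deviate together (r of 0.14, 0.16, 0.34 and -0.04), so they were not treated as pairs. A replicate block gave 493 higher and 660 lower genes and -0.99 for Hnf4. With it, 1 cuticle gene in place of 6 was lower, 0 metabolic nuclear receptors in place of 2 and 1 heat shock gene in place of 2 were higher, and 18 named genes lost the call, Hsp67Bc (1.55), Pxn (-0.71) and Hr96 (0.49) among them. The genes that follow Lsp1beta numbered 145 at r of at least 0.8, 9 at 0.95 and 64 with Lsp1gamma in place of Lsp1beta. Genes with an r of the same size but negative numbered 96, 2 and 24.

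Of 165 called named genes other than Hnf4, 117 kept the call under every alternative. Signs turned without the libraries with fat body transcripts for Jabba (-0.0164), Gnmt (-0.0119), Sardh (-0.42), Lsp1alpha (-5.94), Lsp1beta (-0.67), Lsp1gamma (-1.25), Lsp2 (-1.41), Fbp2 (-0.79), fon (-1.70), CG6271 (-0.31), EcR (0.28) and shd (0.10), and with the covariate for Npc2g (-0.57), Lsp1alpha (-1.60), Lsp1beta (-0.18), Fbp2 (-0.81) and CG6271 (-0.0321). Without single libraries the values ranged from -0.0550 to 0.14 for CG6271, -0.21 to 0.0420 for EcR and -0.17 to 0.0250 for shd, none called. Npc2g and svp have no value without the libraries with fat body transcripts, where their counts were all 0.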

Other observations

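Several genes with low counts were at or near 0 in every library of 1 genotype; they were picked after their values were seen and are given as values. CG1924 had 0 counts in the 4 Hnf4i libraries and 268 counts in the control libraries, at least 81.9-fold lower when set against 3 counts over the group. Cnx14D, a calnexin gene, had 7 counts in Hnf4i and 1248 counts in control libraries (0.0181, 0, 0.108 and 0.0191 CPM in Hnf4i midguts, against 5.50, 5.23, 6.26 and 6.05 CPM in control midguts). Both lie on chromosome X, and both were lower on day 3 as well (log2 fold change -6.56 for CG1924 and -8.04 for Cnx14D).

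In the other direction, the neighbouring gustatory receptor genes Gr64a and Gr64f, known as sugar receptors, had 436 and 321 counts in Hnf4i and 5 and 8 counts in control libraries. Gr64a had 2.10, 1.58, 2.81 and 2.23 CPM in Hnf4i midguts, against 0, 0.0278, 0.0534 and 0 CPM in control midguts. The segmentation gene ftz had 0.960, 0.541, 0.713 and 0.707 CPM in Hnf4i midguts, against 0.0443, 0, 0 and 0 CPM in control midguts, and Apl had 4.19, 3.37, 4.08 and 3.93 CPM in Hnf4i midguts, against 0.0222, 0.0972, 0.0534 and 0.223 CPM in control midguts. These 4 genes were higher on day 3 too.

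Hnf4i replicate 2 alone held further transcripts beside Uro, again picked after their values were seen. Alp7, an alkaline phosphatase gene, stood at 47.8 CPM there, Muc11A at 35.5 CPM and kumpel at 14.4 CPM, while none passed 0.1 CPM in another day 4 library.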
